A study of Homo sapiens with 346 samples.

Results

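CDKN1A, MDM2, TP53I3, GDF15, BAX, BBC3, SESN1, FDXR and ZMAT3, 9 genes that the transcription factor p53 is known to activate, were followed in single cells of 2 human cell lines, live or fixed in methanol. The 9 genes were taken by name from the gene tables, and all 9 of 9 were listed in both tables, among 28806 genes for HCT-116 and 29551 for HepG2 (31463 different symbols in all).

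p53 is kept at a low level in unstressed cells because MDM2, a ubiquitin ligase and a p53 target, marks it for degradation, so the pathway carries its own negative feedback. When DNA is damaged or other stress stabilises the protein, p53 binds paired copies of a short motif near its target genes and raises their transcription. Its activity is set largely at the level of the protein, and its targets arrest the cell cycle (CDKN1A), start apoptosis (BAX, BBC3) or act in metabolism and redox defence (TP53I3, SESN1, FDXR). HCT-116 is a colorectal carcinoma line.

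The study asked whether methanol fixation alters single-cell RNA-seq data. Cells of each line were grown in DMEM with serum, dissociated with trypsin and divided, and a portion was processed live while the rest was fixed in 80% methanol and stored at -80 °C for 1 week, then rehydrated. Single cells were sorted into plates and full-length cDNA was made with Smart-seq2, with a propidium iodide gate against dead cells described for the live sort. No drug, irradiation or other p53 stimulus is named in the labels. The tables hold 91 live and 92 fixed HCT-116 cells and 68 live and 83 fixed HepG2 cells, that is 334 of 346 labelled cells. Median depth was 2.5 M reads per cell in live HCT-116 (range 0.7 to 5.3), 1.8 in fixed HCT-116 (0.2 to 4.9), 2.4 in live HepG2 (1.5 to 3.7) and 2 in fixed HepG2 (1 to 2.8). Mean genes detected were 12029, 10506, 13858 and 12118 in the same order, lower in fixed than in live cells of either line.

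Each line and treatment is 1 sample, because the labels name no separate cultures. Values are therefore described over cells, with SD over cells, and no test between groups was made. Fixed cells were sorted and made into libraries after their storage, so that fixation and the run of library preparation cannot be told apart. The methods describe more than 1 HepG2 experiment, and no label tells which cell belongs to which.

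The label HepG2 did not match its markers. Of 17 hepatocyte genes, 8 were listed and none reached 1 TPM (a level scaled for transcript length and for the total of the cell) in at least 50% of cells. Summed over the list, the mean was 2.88 TPM live and 4.22 TPM fixed, SERPINA1 was the most abundant at 2.27 and 3.95 TPM, and ALB, AFP and APOB were at 0 or not listed. Of 10 genes listed as markers of luminal breast epithelium, all 10 were listed, and 8 in live and 9 in fixed cells were above 1 TPM in at least 50% of cells, led by TFF1 at 2046 and 3551 TPM. These cells are called HepG2 below only as their label. In HCT-116, CDX2, an intestinal transcription factor, was the only intestinal marker of 10 above 1 TPM in at least 50% of cells, with a mean of 7.47 TPM live and 5.44 TPM fixed.

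Some columns stood apart. A live and a fixed HepG2 column held the same values throughout, and 6 fixed HepG2 columns were each correlated above 0.95 with every other of the 6. These 6 had a median of 16114 genes detected against 12228 in the other fixed HepG2 cells. Their CDKN1A lay at 55.3 TPM or above, around a median of 80.5 TPM, and their SESN1 between 11.8 and 21.1 TPM, a band inside the range of the remaining 77 cells. Values without them are given beside many of the fixed HepG2 results.

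A DNA match to the p53 motif was found near 4 of the 9 genes. The search covered both strands from 3000 bases before to 1000 bases after the start of each gene's MANE transcript in GRCh38, for 2 adjoining copies of the 10-letter p53 consensus half-site with at most 2 letters off and the core C and G of each copy kept. Such a match was present in 574 of 19061 gene windows, or 3.01%. The 4 matches are shown because they are the only positions of the 9 genes where the motif was found. The 20 letters of the match are in capitals between 5 flanking bases on each side, and each had 2 letters off:
CDKN1A: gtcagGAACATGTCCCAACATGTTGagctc
MDM2: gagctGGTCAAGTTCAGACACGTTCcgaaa
GDF15: attgcCATCTTGCCCAGACTTGTCTcgaac
BAX: cccccGGGCAGGCCCGGGCTTGTCGcccgc

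The CDKN1A match lay at chr6:36676449-36676468 on the plus strand, 2265 bases upstream of the start. The MDM2 match lay at chr12:68808923-68808942 on the plus strand, in an intron 746 bases after the start. The GDF15 match was at chr19:18385308-18385327, 850 bases upstream, and the BAX match at chr19:48955213-48955232, in an intron 338 bases after the start, both on the plus strand. A match is a description of these letters, and binding was not measured. No match in the windows of TP53I3, BBC3, SESN1, FDXR and ZMAT3 says only that these letters were not found there.

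In mean TPM, GDF15 and CDKN1A stood above the other members in HCT-116, and both had an SD over cells larger than the mean. By median, CDKN1A lay below FDXR in live HCT-116. The plot of single cells shows the 9 genes in the 4 groups.

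**Figure D1:**
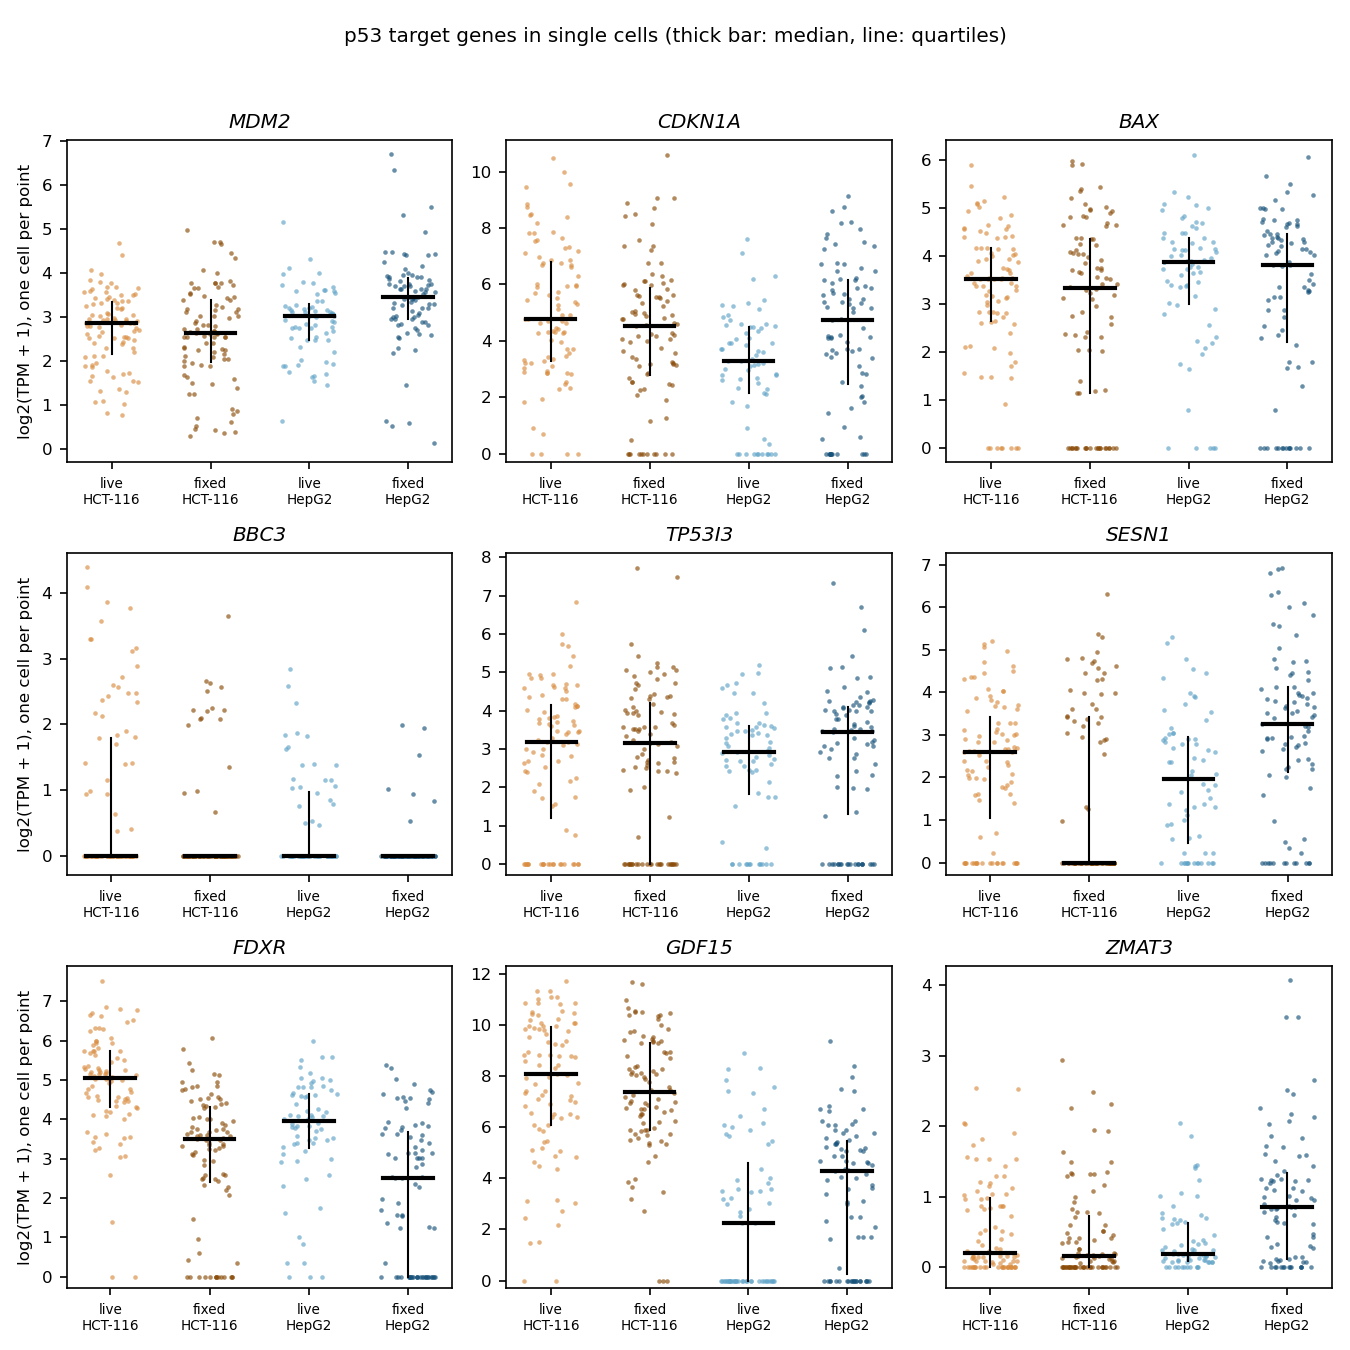
Level of each gene in single cells as log2(TPM + 1), 1 point per cell, in live and fixed HCT-116 (91 and 92 cells) and live and fixed HepG2 (68 and 83 cells); the thick bar is the median and the line spans the quartiles. GDF15 is high in HCT-116, FDXR is lower in fixed than in live cells of both lines, and the cells of all groups overlap for every gene.

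MDM2, the feedback ligase, was low, with an SD of 0.639 times the mean in live HCT-116. In live HCT-116 it ran from 0.701 through a median of 6.26 to 24.7 TPM, and in fixed HCT-116 from 0.229 through 5.25 to 30.6 TPM. In live HepG2 it ran from 0.547 through 7.14 to 34.6 TPM, and in fixed HepG2 from 0.106 through 10.0 to 102.8 TPM (median 9.74 TPM without the 6 similar columns). The cells of the 4 groups overlapped, and the fixed HepG2 cells had the highest cell and the highest median.

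CDKN1A encodes p21, an inhibitor of cyclin-dependent kinases that holds cells before S phase. In live HCT-116 it ran from 0 through a median of 26.6 to 1441 TPM, with quartiles of 8.9 and 110.8 TPM, and in fixed HCT-116 from 0 through 22.2 to 1540 TPM. In live HepG2 it ran from 0 through 8.88 to 197 TPM, and in fixed HepG2 from 0 through 25.4 to 565 TPM (median 17.1 TPM without the 6 similar columns). The distribution was skewed: the 10% of live HCT-116 cells with the most CDKN1A held 57.4% of all CDKN1A TPM of that group, and the like share was 22.7% for MDM2. CDKN1A was nevertheless widespread, with a TPM above 0 in 95.6% (exact Clopper-Pearson 95% interval 89.1 to 98.8) of live and 88% (79.6 to 93.9) of fixed HCT-116 cells. All intervals on shares cover counting error only.

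GDF15, a secreted stress cytokine of the TGF-beta family, was the most abundant member in HCT-116. It ran from 0 through a median of 270 to 3361 TPM in live cells and from 0 through 166.5 to 3253 TPM in fixed cells. In live HepG2 it ran from 0 through 3.76 to 474 TPM, and in fixed HepG2 from 0 through 18.6 to 664 TPM (median 15.3 TPM without the 6 similar columns). The share of HepG2 cells with GDF15 above 0 was 51.5% (39 to 63.8) live and 74.7% (64 to 83.6) fixed. The lines overlapped, but all live HepG2 cells lay below the live HCT-116 mean of 604 TPM and 3 of 68 exceeded its median.

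Of the apoptosis genes, BAX, which permeabilises the mitochondrial outer membrane, had means closer to each other than their SD, at 12.5 ± 10.7 TPM (live) and 12.8 ± 14.1 TPM (fixed) in HCT-116 and 14.8 ± 11.4 and 14.5 ± 12.9 TPM in HepG2. Its share of cells above 0 was 91.2% (83.4 to 96.1) in live and 76.1% (66.1 to 84.4) in fixed HCT-116. BBC3, which encodes the BH3-only protein PUMA, was rare, with a median of 0 in all 4 groups and a highest cell of 20.01 TPM in live HCT-116.

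Among the metabolic and redox members, FDXR, the mitochondrial reductase that passes electrons to ferredoxin, was the most abundant in live cells. It ran from 0 through a median of 32.2 to 183.2 TPM in live HCT-116 and from 0 through 10.3 to 65.8 TPM in fixed HCT-116. In HepG2 the medians were 14.6 TPM live and 4.73 TPM fixed (5.96 TPM without the 6 similar columns), with highest cells of 62.2 and 40.9 TPM. Fixed cells were thus shifted down within an overlapping range in both lines.

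SESN1, a sestrin that restrains mTORC1 signalling, ran from 0 through a median of 5.01 to 36 TPM in live HCT-116 and from 0 through 0 to 77.8 TPM in fixed HCT-116. The SESN1 medians in HepG2 were 2.89 TPM live and 8.52 TPM fixed (7.51 TPM without the 6 similar columns), with highest cells of 38.2 and 120.6 TPM. TP53I3, a quinone oxidoreductase, had medians of 8.1 TPM (live) and 7.84 TPM (fixed) in HCT-116 and of 6.61 and 9.9 TPM in HepG2 (fixed 8.70 TPM without the 6 similar columns). ZMAT3, an RNA-binding zinc finger protein, was the lowest member together with BBC3, with medians of 0.15, 0.115, 0.143 and 0.806 TPM in the same order (the last 0.768 TPM without the 6 similar columns).

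In live HCT-116 the order of mean levels was GDF15 (604 TPM), CDKN1A (112.2), FDXR (39.5), TP53I3 (12.6), BAX (12.5), SESN1 (7.22), MDM2 (6.68), BBC3 (1.98) and ZMAT3 (0.654). The gap between neighbours in this order was smaller than the larger of their SDs over cells for every pair except MDM2 and BBC3. These SDs describe the spread over cells, and the levels of neighbours were not compared cell by cell. In fixed HCT-116 FDXR (12.7 TPM) stood beside BAX (12.8 TPM) and below TP53I3 (14.8 TPM).

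Fixed and live HCT-116 cells were compared gene by gene as the log2 ratio of mean TPM, among genes with a mean of at least 1 TPM in either group. Of the 9 members 8 passed this floor (ZMAT3 did not), none was 2-fold or more higher in fixed cells (3.81% of all genes tested were) and 2 were 2-fold or more lower (10.1% of all genes). The 2 were FDXR and BBC3. BBC3 was above 1 TPM in live cells alone, so that it could enter this count only as lower, and FDXR was the 1 lower gene among the 7 members above 1 TPM in both groups. The median log2 ratio of the 8 members was -0.29, beside 0.16 over all 12426 genes tested, and these medians were -0.46 and -0.04 once TPM were rescaled per cell by the median ratio of broadly detected genes. The members' median includes BBC3, which through the floor could enter it only with a negative ratio.

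FDXR in HCT-116 averaged 39.5 ± 31.1 TPM live and 12.7 ± 12.18 TPM fixed, a log2 ratio of -1.64 or 3.12-fold lower. Only 6 of 92 fixed cells exceeded the live median, and the share of cells expected to hold a FDXR read at 500000 reads per cell was 93.9% live and 69.99% fixed. BBC3 averaged 1.98 ± 3.85 TPM live and 0.688 ± 1.79 TPM fixed, a log2 ratio of -1.53. It was above 0 in 38.5% (28.4 to 49.2) of live and 18.5% (11.1 to 27.9) of fixed cells, and at 500000 reads per cell in 29.8% and 15.6%. On the mean of log2(TPM + 1), the BBC3 difference was -0.48 and no longer past 2-fold, whereas that of FDXR was -1.84. On the mean of log2(TPM + 0.1) SESN1 also passed it, at -1.89.

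CDKN1A in HCT-116 averaged 112.2 ± 221 TPM live and 77.7 ± 191.1 TPM fixed, a log2 ratio of -0.53, and 42 of 92 fixed cells exceeded the live median. GDF15 averaged 604 ± 723 TPM live and 438 ± 613 TPM fixed, a ratio of -0.46. Both differences were small beside the SD over cells. The FDXR difference in HCT-116 was also smaller than its live SD, though larger than its fixed SD, and that of BBC3 was smaller than either SD. SESN1 had a ratio of only -0.11 in mean TPM, yet it was above 0 in 78% (68.1 to 86) of live and 40.2% (30.1 to 51) of fixed cells, and at 500000 reads per cell in 74.7% and 38.7%. Fewer fixed cells held SESN1, and the highest 10% of them held 50.9% of its TPM against 37.1% in live cells. MDM2 (0.04), BAX (0.03) and TP53I3 (0.24) had ratios that changed sign with the scaling, and ZMAT3 stayed under 1 TPM in both groups.

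In HepG2 the members were arranged differently. Of 8 members past the floor (BBC3 was not), 3 were 2-fold or more higher in fixed cells (5.98% of all genes) and 1 was 2-fold or more lower (11.3% of all genes). The 3 were CDKN1A, SESN1 and ZMAT3, and the 1 was again FDXR. ZMAT3 was above 1 TPM in fixed cells alone, so that it could enter this count only as higher, and CDKN1A and SESN1 were the 2 higher genes among the 7 members above 1 TPM in both groups. The median log2 ratio of the 8 was 0.72, beside 0.14 over all 13228 genes tested, and 0.54 beside -0.08 after rescaling by the median ratio. The members' median includes ZMAT3, which through the floor could enter it only with a positive ratio.

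CDKN1A averaged 18.1 ± 30.7 TPM (live) and 64.1 ± 102.7 TPM (fixed) in HepG2, a log2 ratio of 1.83 or 3.55-fold higher, and 58 of 83 fixed cells exceeded the live median. SESN1 averaged 5.71 ± 7.96 TPM live and 17.4 ± 25.9 TPM fixed, a ratio of 1.60, with 64 of 83 fixed cells above the live median. ZMAT3 averaged 0.4 ± 0.608 TPM live and 1.48 ± 2.48 TPM fixed, a ratio of 1.89. For each of these genes the difference in mean TPM was smaller than the fixed SD over cells. Without the 6 similar columns the ratios were 1.80 for CDKN1A, 1.62 for SESN1 and 1.91 for ZMAT3, and in 46 pairs of cells matched on total reads 1.95, 1.81 and 1.997. On the mean of log2(TPM + 1) CDKN1A (1.17) and SESN1 (1.14) stayed past 2-fold and ZMAT3 (0.56) did not.

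FDXR averaged 17.1 ± 12.9 TPM (live) and 7.92 ± 9.66 TPM (fixed) in HepG2, a log2 ratio of -1.11 (-1.03 without the 6 similar columns). This difference in means was smaller than either SD over cells. MDM2 had a ratio of 0.77 and TP53I3 of 0.66, both under 2-fold, and BAX one of -0.03 that changed sign with the setting (0.02 without the 6 similar columns). GDF15 had a ratio of 0.12 in mean TPM (0.05 without the 6 similar columns) and 1.03 on the mean of log2(TPM + 1), and it turned to -0.18 after rescaling. Its mean TPM rested on few cells, and the highest 10% of live HepG2 cells held 69.8% of it. BBC3 was above 0 in 35.3% (24.1 to 47.8) of live and 8.43% (3.46 to 16.6) of fixed HepG2 cells.

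**Figure D2:**
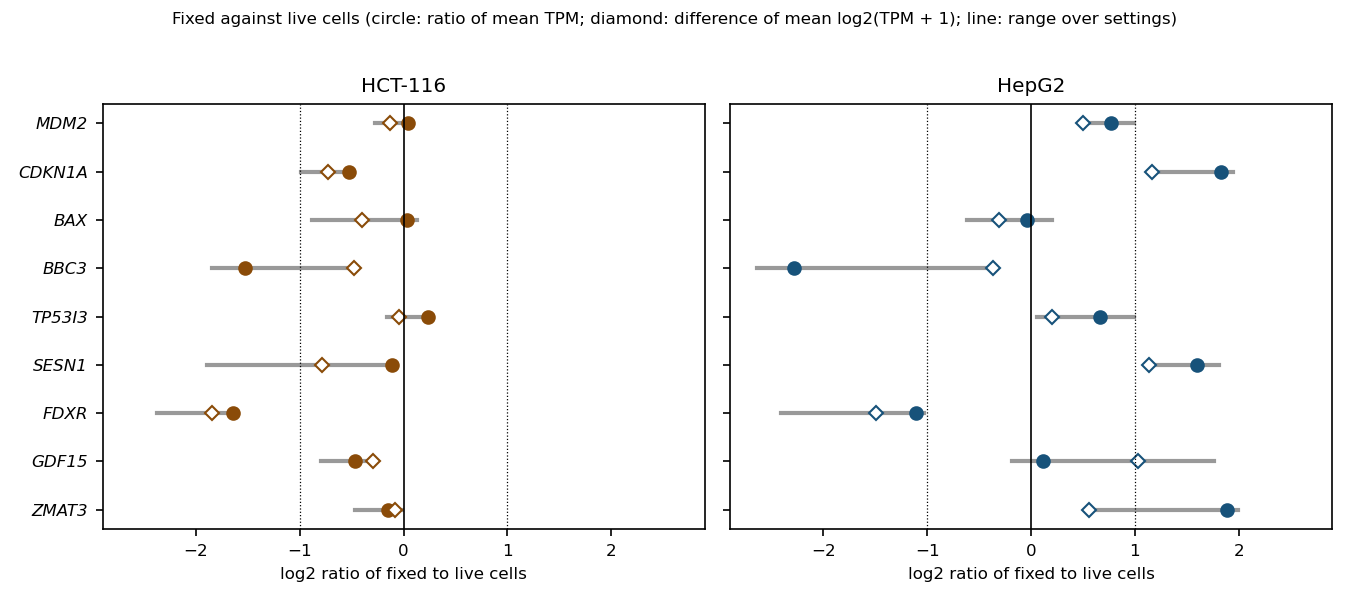
Log2 ratio of fixed to live cells for each gene in HCT-116 (left) and HepG2 (right); circles are ratios of mean TPM, diamonds the difference of mean log2(TPM + 1), grey lines the range over all settings run, and dotted lines mark 2-fold. FDXR lies left of 0 in both lines under every setting, while CDKN1A and SESN1 lie right of 0 only in HepG2.

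Other quantities moved with fixation beside these ratios. The 18S ribosomal RNA gene RNA18S5 had a mean of 255152 TPM (live) and 76548 TPM (fixed) in HCT-116, and 55075 and 22615 TPM in HepG2. RNA28S5, the 28S gene, moved the other way. It had 255 TPM (live) and 1188 TPM (fixed) in HCT-116, and 140 and 689 TPM in HepG2. With ribosomal RNA genes left out the log2 ratios were -1.95 for FDXR and -0.85 for CDKN1A in HCT-116, and -1.28, 1.65 and 1.44 for FDXR, CDKN1A and SESN1 in HepG2. Of 10 immediate early genes, which respond to dissociation and other stress within minutes, 6 were 2-fold or more lower in fixed HCT-116 and 8 in fixed HepG2, beside 10.1% and 11.3% of all genes, with median log2 ratios of -1.54 and -2.82 beside 0.16 and 0.14 over all genes. Their summed level was 1085 TPM (live) and 664 TPM (fixed) in HCT-116, led by IER3, and 1037 and 142.5 TPM in HepG2. Of 20 mitotic and 20 S-phase genes, no mitotic gene passed 2-fold in either line and 1 S-phase gene, MCM2, was lower in fixed HepG2, against the same 10.1% and 11.3% of all genes lower. The part of these shifts in the members' ratios was not tested.

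The transcripts of the members differ in length and base composition. By GENCODE release 44, the MANE transcript of FDXR (chr17:74862497-74872994, minus strand, 12 exons) is 1846 nt long with 63.5% GC, and that of BBC3 (chr19:47220824-47231199, minus strand, 4 exons) is 1846 nt with 69.7% GC. GDF15 (chr19:18386158-18389176, plus strand) has 62.9% GC and BAX (chr19:48954875-48961798, plus strand) 60.8%, and neither passed 2-fold in mean TPM. On the mean of log2(TPM + 1), GDF15 did so in HepG2, at 1.03. The 3 members that were higher in fixed HepG2 include the GC-poor SESN1 (chr6:108984309-109094846, minus strand, 5664 nt, 40.6% GC) and ZMAT3 (chr3:179017223-179071809, minus strand, 8936 nt, 38.2% GC), and also CDKN1A (chr6:36678714-36687332, plus strand, 2117 nt, 57.3% GC). MDM2 (chr12:68808177-68845544, plus strand, 7490 nt, 39.5% GC) and TP53I3 (chr2:24077433-24084834, minus strand, 1653 nt, 59.4% GC) passed 2-fold in neither direction in mean TPM. The part of GC content or length in these ratios was not tested.

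Between the lines, live HepG2 cells had 4 of 8 members 2-fold or more lower than live HCT-116 cells (19.5% of all genes tested) and none higher (24.5%). The 4 were GDF15 (log2 ratio -3.96, 15.5-fold lower), CDKN1A (-2.63), BBC3 (-1.63) and FDXR (-1.21). In fixed cells 1 of 8 was lower (19.1% of genes), GDF15 at -3.38, and 2 were higher (24.1%), SESN1 at 1.38 and ZMAT3 at 1.32, so that 3 of 8 passed 2-fold either way (43.2% of genes). BBC3 in live cells and ZMAT3 in fixed cells were above 1 TPM in 1 line alone. Without the 6 similar columns the fixed ratios were -3.44 for GDF15, 1.39 for SESN1 and 1.34 for ZMAT3. CDKN1A, at -0.28 between the fixed lines, no longer passed 2-fold, with 42 of 83 fixed HepG2 cells above the fixed HCT-116 median against 11 of 68 for live cells.

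A further 45 p53 targets and 20 p53 regulators, kept in lists by function, were read in the same way. In HCT-116, 40 of the 45 targets passed the floor, 1 was 2-fold or more higher in fixed cells (3.81% of all genes were) and 4 were lower (10.1% of all genes), shares near those of all genes, with a median log2 ratio of -0.10 (none higher and 6 lower after rescaling by the median ratio, when 2.58% and 13.6% of all genes were). By function, the targets past 2-fold were these: of 8 arrest and feedback genes none passed 2-fold, of 10 apoptosis genes 2 were lower, of 5 repair and nucleotide supply genes none, of 6 metabolic genes 1 was lower, and of 11 other targets 1 was higher and 1 lower. The 5 largest ratios of the targets and regulators were all negative. PIDD1, an adaptor of the caspase-2 complex, had -1.67, ALDH4A1, a mitochondrial proline catabolism enzyme, -1.51, the ephrin receptor EPHA2 -1.50, the p53 relative TP73 -1.32, and AEN, a nuclease of apoptosis, -1.12.

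In HepG2, 42 of the 45 targets passed the floor, 10 were 2-fold or more higher in fixed cells (5.98% of all genes were) and 1 was lower (11.3% of all genes), with a median of 0.39 beside 0.14 over all genes. GADD45A and SPATA18 were among genes with a live mean under 1 TPM, which could pass only as higher and enter the median only with a positive ratio. After rescaling by the median ratio the counts were 5 and 2 (3.28% and 15% of all genes) and the median 0.19 (-0.08 over all genes), and without the 6 similar columns they were 10 and 1. On the mean of log2(TPM + 1) they were 2 and 2 (1.04% and 5.32% of all genes), with a median of 0.29 beside 0.02 over all genes. The largest ratios were those of the death receptor FAS (2.36, from 1.17 ± 3.20 TPM live to 6.02 ± 14.1 TPM fixed), the growth arrest gene GADD45A (1.93), TP53INP1, a p53-induced nuclear protein (1.85), the glutaminase GLS2 (1.72) and the mitochondrial quality control gene SPATA18 (1.56). By function, 2 of 8 arrest genes, 3 of 11 apoptosis genes, 1 of 5 repair genes, 2 of 7 metabolic genes and 2 of 11 other targets were higher. PIDD1 was the target that was lower.

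Of the 20 regulators 19 were listed. In both lines USP7, the deubiquitinase that acts on MDM2 and p53, was the regulator 2-fold or more higher in fixed cells, and TP73 the one lower, among 18 past the floor in HCT-116 (3.81% of all genes were higher and 10.1% lower) and 16 in HepG2 (5.98% and 11.3%). TP73 was above 1 TPM in live cells alone and could enter only as lower, and USP7 no longer passed 2-fold in HCT-116 after rescaling. Of the 45 targets, 12 were higher and 12 lower in live HepG2 than in live HCT-116, among 42 past the floor (24.5% and 19.5% of all genes), and 17 were higher and 8 lower in fixed cells, among 43 (24.1% and 19.1%). Between the lines the regulators differed in CDKN2A, whose ARF product blocks MDM2, at 40.1 ± 18.99 TPM in live HCT-116 and 0.604 ± 1.07 TPM in live HepG2 (log2 ratio -6.05) and -6.69 between fixed cells. Live HepG2 cells also had more EDA2R, a TNF receptor family gene (4.58), and less of the kinase PLK3 (-4.10), GADD45A (-3.67) and the growth factor TGFA (-3.41). EDA2R and GLS2 in HCT-116, and CDKN2A and live GADD45A in HepG2, had means under 1 TPM, so that they could pass the floor only through the other line and their ratios rest on small means. In fixed cells EDA2R (6.37) and GLS2 (4.75) were higher in HepG2, and SPATA18 was listed at 0 in every fixed HCT-116 cell and at 2.901 ± 4.68 TPM in fixed HepG2.

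Within each group, the members were next compared cell by cell, as Pearson's r of log2(TPM + 1) over cells. These r describe the cells of 1 group, which differ in depth and carry no test, and in HepG2 the cells of a group may come from more than 1 experiment, which the r then pool. In live HCT-116, 9 of the 36 pairs of members reached r of 0.3 (2.41% of all pairs of genes that at least 50% of cells detected did), and 30 of 36 were positive, with a median of 0.22 beside 0.03 over all pairs. In fixed HCT-116, 10 of 36 pairs did (2.98% of all pairs) and 36 of 36 were positive, with a median of 0.21 beside 0.03. The all-pair shares hold 8 of the 9 members in live and 7 in fixed HCT-116, since the others were detected in fewer cells. Live and fixed HCT-116 had 7 such pairs in common, 77.8% of the live and 70% of the fixed pairs, and the like overlap over all pairs of genes was not computed.

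CDKN1A was in most of these pairs in HCT-116. It took part in 6 of the 9 live pairs, with GDF15 (0.56), SESN1 (0.50), ZMAT3 (0.45), BBC3 (0.43), FDXR (0.40) and TP53I3 (0.31). In fixed HCT-116 it took part in 6 of the 10, and its r was 0.65 with SESN1, 0.49 with GDF15, 0.39 with ZMAT3 and 0.33 with MDM2. BAX had r of -0.13 to CDKN1A live and 0.14 fixed and no pair at 0.3 in either HCT-116 group. MDM2 had no such pair in live and TP53I3 none in fixed HCT-116, where its r to CDKN1A was 0.18.

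**Figure D3:**
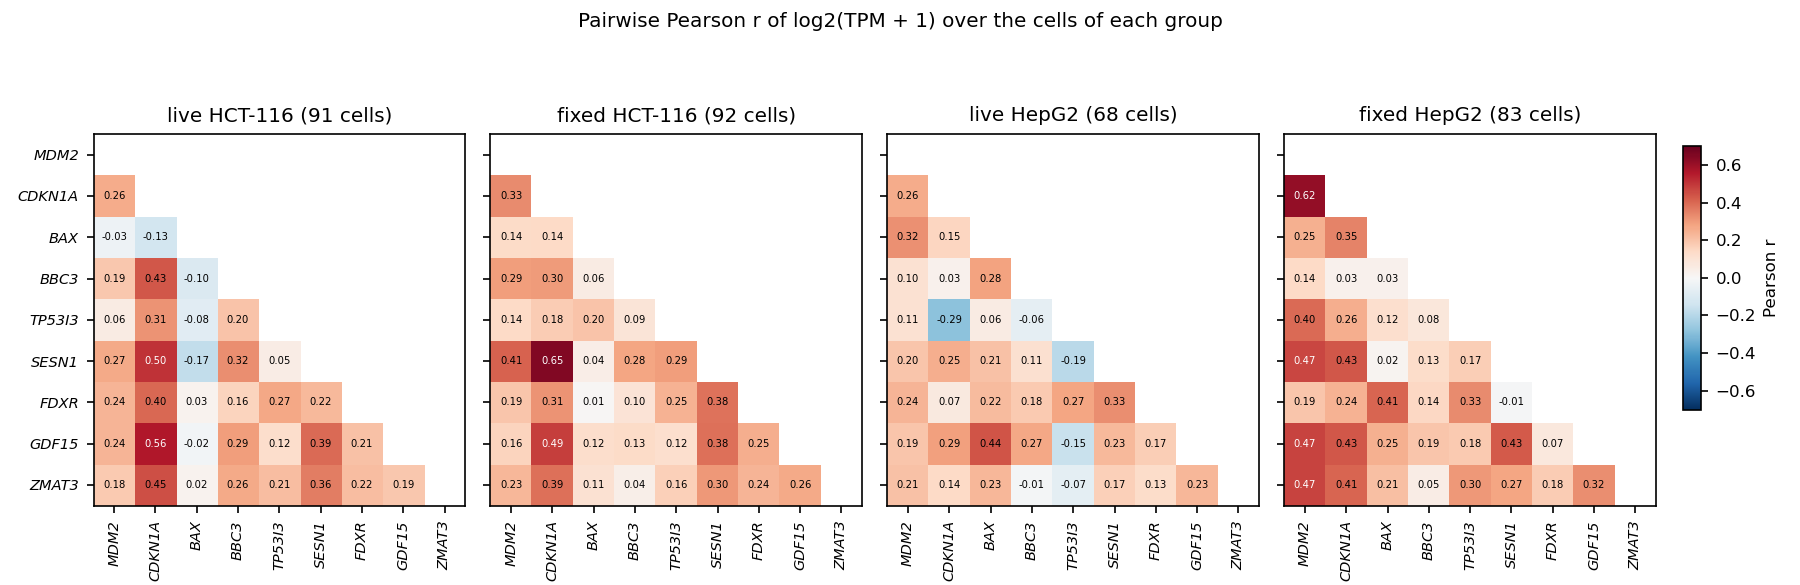
Pairwise Pearson r of log2(TPM + 1) between the 9 genes over the cells of each group, in red for positive and blue for negative values. CDKN1A has r of 0.56 with GDF15 in live HCT-116 and of 0.62 with MDM2 in fixed HepG2, while its r with BAX is -0.13 in live HCT-116.

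In live HepG2, 3 of 36 pairs reached 0.3, a share of 8.33% beside 7.73% of all pairs, and CDKN1A was in none of them, while 30 of 36 were positive with a median of 0.19 beside 0.06. Its r with TP53I3 was -0.29, the lowest of the 36 pairs, and the 3 pairs were GDF15 with BAX (0.44), MDM2 with BAX, and SESN1 with FDXR (2 pairs reached 0.3 without the column that equals a fixed one). In fixed HepG2, 14 of 36 pairs reached 0.3 (4.24% of all pairs did), led by CDKN1A with MDM2 at 0.62, and MDM2 also had r of 0.47 with SESN1, ZMAT3 and GDF15. Without the 6 similar columns 13 pairs reached 0.3 and CDKN1A with MDM2 had 0.62.

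In fixed HepG2 the number of genes detected per cell was itself correlated with CDKN1A (0.45), MDM2 (0.42) and GDF15 (0.42). With that number taken out by regression, 11 of 36 pairs reached 0.3 (2.58% of all pairs) and CDKN1A with MDM2 had 0.53. In live HCT-116 the r of CDKN1A with genes detected was 0.26, and 8 of 36 pairs (2.12% of all pairs) reached 0.3 after it was taken out.

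**Figure D4:**
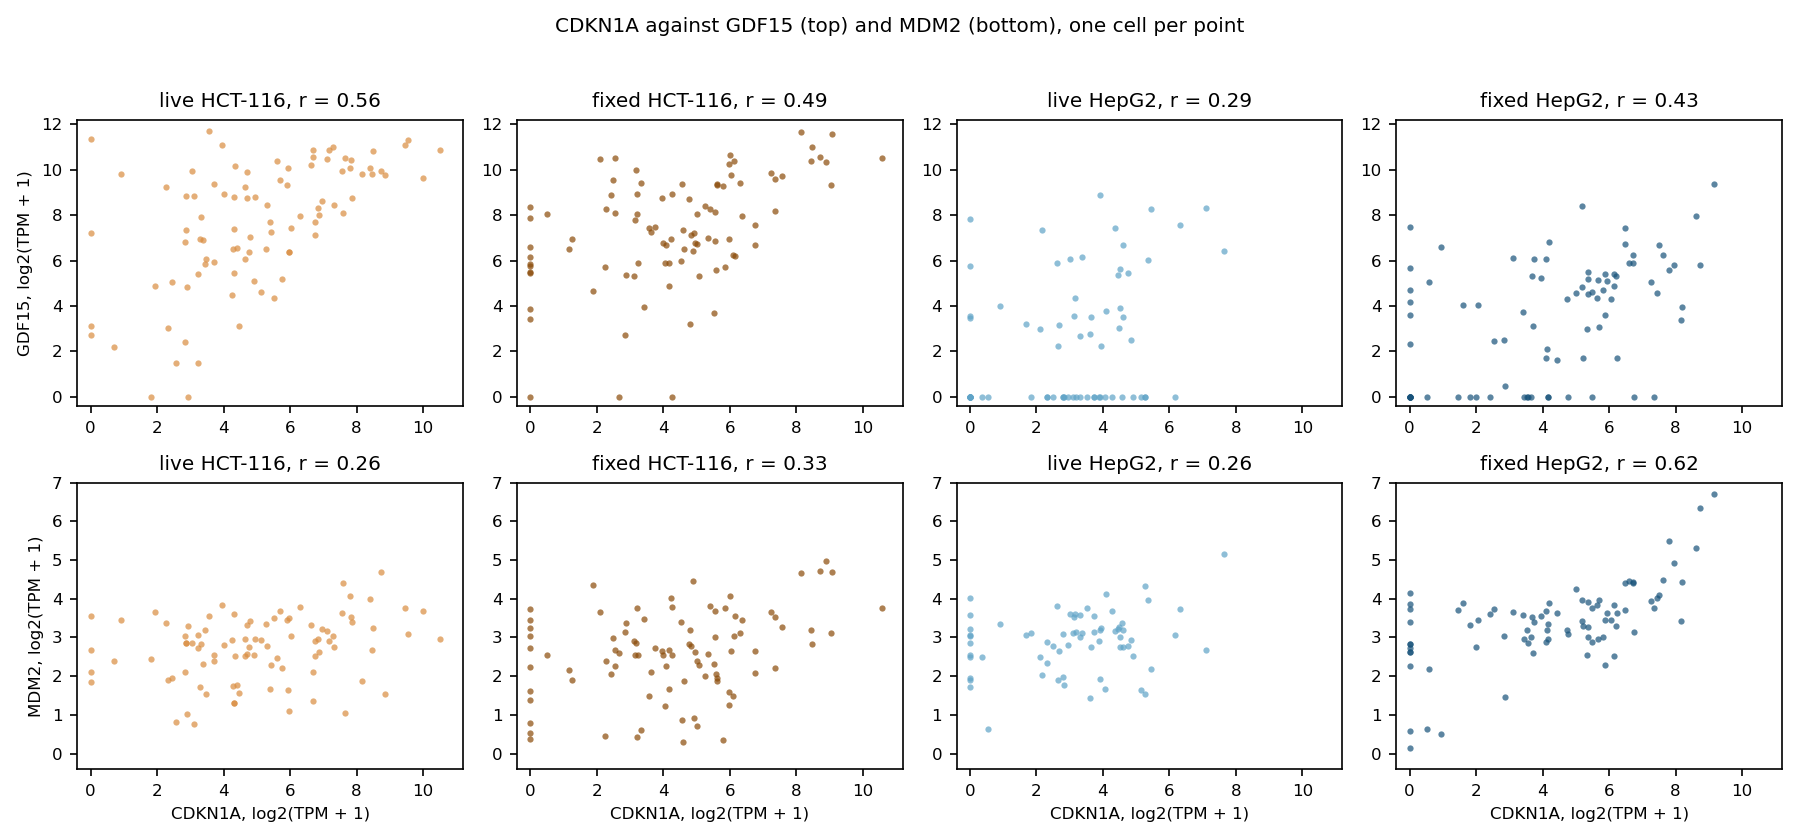
CDKN1A (horizontal axis) against GDF15 (top row) and MDM2 (bottom row) in the 4 groups, both axes log2(TPM + 1), 1 point per cell. In HCT-116 the cells with the highest CDKN1A also have high GDF15 (r of 0.56 live and 0.49 fixed), and in fixed HepG2 the MDM2 points rise with CDKN1A (r of 0.62, beside 0.26 in live HepG2).

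CDKN1A was then set against every gene that at least 50% of a group's cells detected. In live HCT-116, 1.21% of 11189 genes had r of 0.3 or more with CDKN1A (2.55% after rescaling by the median ratio). Among them were 21 of 39 p53 targets outside the members (25 of 39 after rescaling). The median r of the 39 targets was 0.31 beside -0.03 over all genes. The 5 highest were RPS27L (0.64), the antiproliferative gene BTG2 (0.59), the p53 phosphatase PPM1D (0.57), GDF15 (0.56) and FAS (0.54). RPS27L has a close paralog, RPS27, and the split of reads between them is not known here. Of the first 20 genes, 13 belonged to the members or the p53 lists, including the nucleotide excision repair genes XPC and DDB2 and the apoptosis inhibitor TRIAP1.

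Among the genes ranked, fixed HCT-116 cells had the same 5 highest genes, in another order. There 67 of 9742 genes (0.688%) reached 0.3 with CDKN1A, among them 17 of 36 other targets (1.29% and 19 of 36 after rescaling). The 5 highest were BTG2 (0.54), PPM1D (0.50), FAS (0.50), GDF15 (0.49) and RPS27L (0.42). Of the first 20 genes 15 belonged to the members or the p53 lists. SESN1, above 0 in fewer than 50% of fixed HCT-116 cells, was not among the genes ranked, though its r of 0.65 exceeded all of them.

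In live HepG2, 225 of 13419 genes (1.68%) reached 0.3 with CDKN1A, with 3 of 39 other targets (FAS, BTG2 and PERP) among them, whose median r was 0.20 beside 0.04 over all genes. Without the column that equals a fixed one, 1.11% of genes did, with 2 of 39 targets. The 5 highest were TMEM189 (0.48), the clathrin light chain CLTB (0.46), FAS (0.45), ST3GAL4 (0.44) and C1QTNF6 (0.44). FAS was the only 1 of the first 20 genes from the members or the p53 lists. In fixed HepG2 the background was broader, with 781 of 11389 genes (6.86%) at 0.3 and a median r of 0.10 over all genes. Of 37 other targets 21 were among the 781 (13 with genes detected taken out, when 2.15% of all genes reached 0.3). The 5 highest were the signalling adaptor TRAF4 (0.65), GFER (0.62), MDM2 (0.62), SLC29A3 (0.60) and BTG2 (0.59), and without the 6 similar columns the first 4 were the same, in the same order. Among the first 20 genes, 7 belonged to the members or the p53 lists (5 without the 6 similar columns).

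**Figure D5:**
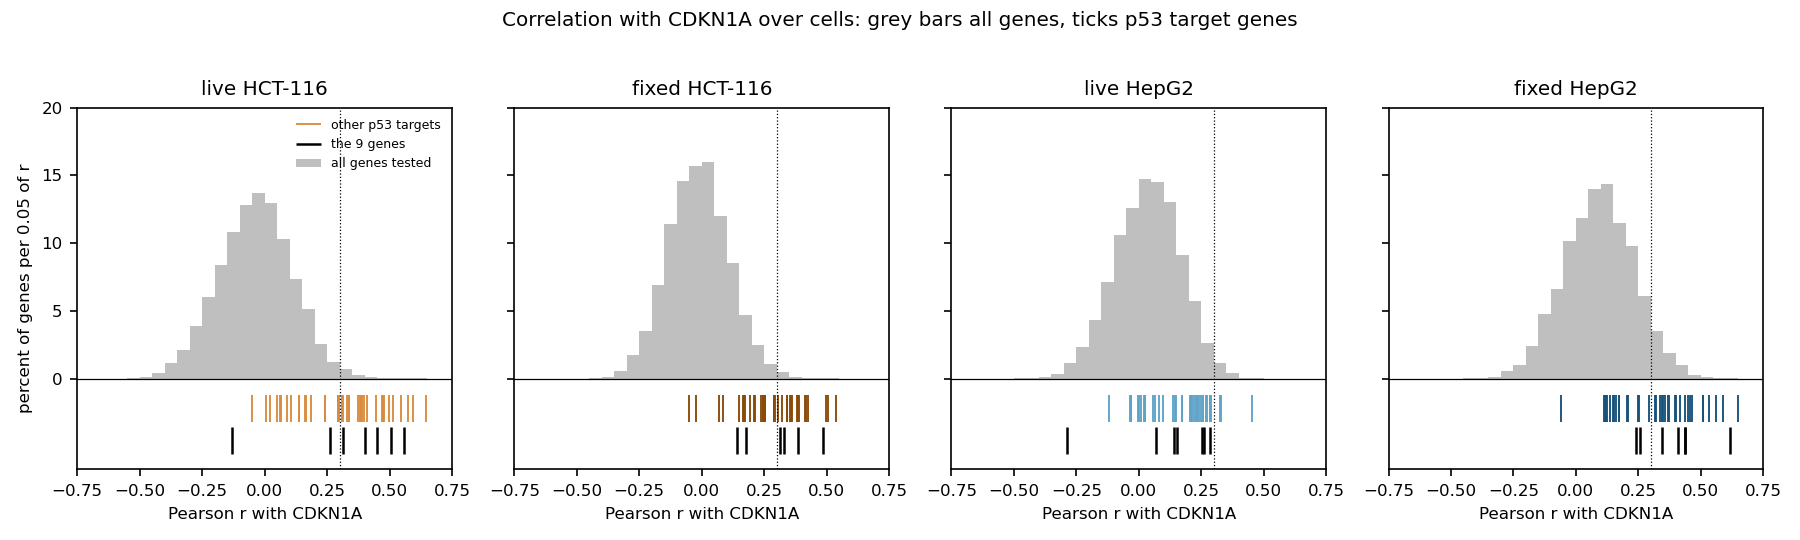
Distribution of Pearson r with CDKN1A over cells for all genes that at least 50% of a group's cells detected (grey bars, percent of genes per 0.05 of r), with ticks for the other p53 targets (coloured) and the members (black). Many target ticks sit right of the bulk in both HCT-116 groups and in fixed HepG2 (21 of 39, 17 of 36 and 21 of 37 at 0.3 or more), while others lie within it. In live HepG2 3 of 39 reach 0.3, with a median r of 0.20 beside 0.04 over all genes.

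MDM2 was set against all genes in the same way. In live HCT-116 39 genes (0.349%) reached 0.3 with MDM2, 1 of 39 other targets among them, and no member. After rescaling by the median ratio 72 genes did, with 3 of 39 targets and 3 of 7 members. With genes detected taken out 25 genes did, with 0 of 39 targets and no member. Among the highest of the 39 genes were ZNF79 (0.38), LOC100379224 (0.37), USP38 (0.35) and PAXBP1 (0.34). In fixed HCT-116 30 genes (0.308%) did, with RPL23AP82 (0.39), GLIPR2, NFE2L2, RPS27L (0.36) and TPST2 (0.35) highest among the genes ranked. Of 36 other targets 2, RPS27L and FAS, reached 0.3, and CDKN1A was the 1 of 6 members ranked that did. SESN1, detected in too few fixed HCT-116 cells to be ranked, had r of 0.41 with MDM2, above all genes ranked. The median r of the targets with MDM2 was 0.12 beside 0.01 over all genes in live and 0.18 beside 0.01 in fixed HCT-116. In live HepG2 885 genes (6.6%) did, headed by a row whose symbol had been turned into a date (0.57), DNAJC30, GCN1, FBXO22-AS1 and RNF34 (0.51), with 7 of 39 other targets among the 885. Without the 1 column that equals a fixed one 304 genes (2.27%) did, with 3 of 39 targets, and after rescaling 0.753% of genes, with 1 of 39. In fixed HepG2 716 genes (6.29%) did, and CDKN1A was first (0.62), before EIF3A, SLC29A3, RAP2B and IKBIP (0.52), with 21 of 37 other targets at 0.3 or more. The 716 were 714 without the 6 similar columns, 411 without the column that equals a live one (17 of 38 targets), and 230 with genes detected taken out (14 of 37).

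Against the cell cycle, CDKN1A and GDF15 had negative r with proliferation genes in HCT-116, weak for CDKN1A in fixed cells. With the mean of 20 mitotic genes, CDKN1A had r of -0.28 (live) and -0.13 (fixed) in HCT-116, and with 20 S-phase genes -0.23 and -0.13. By Spearman's rho the fixed values were -0.08 and -0.04. GDF15 had -0.30 live and -0.46 fixed with mitotic genes, and -0.32 and -0.29 with S-phase genes. In live HepG2 CDKN1A had 0.14 with mitotic and 0.07 with S-phase genes, and in fixed HepG2 -0.09 and -0.03 (-0.13 and -0.06 without the 6 similar columns). With genes detected taken out the fixed HepG2 values were -0.23 and -0.26, and the mitotic value in live HCT-116 was -0.39, so that the size of these r depends on that step. SESN1 had -0.37 with mitotic genes in fixed HepG2 (-0.40 without the 6 similar columns) and 0.14 in live HepG2. With the mean of 10 immediate early genes, r in fixed HepG2 was 0.35 for CDKN1A, 0.39 for MDM2 and 0.40 for GDF15. The other members had r from 0.11 (FDXR) to 0.30 (ZMAT3). For CDKN1A, MDM2 and GDF15, taking out genes detected left 0.17, 0.24 and 0.25. Leaving out the 6 similar columns gave 0.33, 0.38 and 0.38. The like CDKN1A value was -0.02 in live HepG2, 0.08 in live HCT-116 and 0.20 in fixed HCT-116.

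Transcript levels were read in CPM, reads scaled to the cell's total without division by length. A single transcript carried most of the signal of CDKN1A, SESN1, MDM2, FDXR, ZMAT3 and TP53I3 in all 4 groups. The lowest of these shares was 52.5%, for TP53I3 in live HCT-116, and GDF15 had 1 listed transcript. The leading CDKN1A transcript held 89.9% of the gene's signal in live and 94.5% in fixed HCT-116, and 88.4% and 91.8% in HepG2. The leading SESN1 transcript held 82.8% and 95.7% in live and fixed HCT-116 and 80.2% and 92.5% in HepG2. BAX was spread over 9 listed transcripts, and a different one led in live HCT-116, with 27.5%, than in fixed HCT-116, with 31.3%. The median cell of live HCT-116 held 98 CDKN1A reads, 430 GDF15 reads and 9 BAX reads, so that BAX, BBC3 and ZMAT3 rested on few reads. Other members rested on few reads in other groups. The median cell held 0 SESN1 reads in fixed HCT-116, 4 FDXR reads in fixed HepG2 and 9 GDF15 reads in live HepG2.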

How the data were processed

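Smart-seq2 reads were quantified by the authors with kallisto 0.46.0 against GRCh38 and summed to genes with tximport. The deposited gene tables hold TPM per cell, and the deposited transcript tables hold values that behave as CPM, not divided by length. Total reads per cell were recovered from the CPM step to 0.1 M reads. All cells had more than 4000 genes detected. Column names give the line and treatment but not which labelled cell, so columns were used as cells of a group.

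Members, lists and marker genes were chosen with earlier results of these data known. Named genes were the members, in each comparison the 5 other p53 pathway genes with the largest ratio, and in each group the 5 genes with the highest r with CDKN1A and with MDM2; a few genes that this rule names are not reported here. Past 2-fold needed a mean of at least 1 TPM in either group. Analyses used Python 3.11.15, numpy 2.4.6, scipy 1.17.1 and pandas 2.3.3, and were tested on simulated data. Alternatives were another summary, pseudocount, scaling, ribosomal RNA filter, floor, read-matched cells, Spearman's rho, genes detected taken out, and columns left out, of which leaving out the 6 similar columns was chosen after seeing the data. Sites were searched with GENCODE 44 transcripts and the GRCh38 sequence.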

Additional observations from a re-analysis of the deposited data

Results flagged for a closer look

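CDKN1A, SESN1 and ZMAT3 had log2 ratios of fixed to live means of opposite sign in the 2 lines. CDKN1A had -0.53 in HCT-116 and 1.83 in HepG2, SESN1 -0.11 and 1.60, and ZMAT3 -0.15 and 1.89, the last with means under 1 TPM in HCT-116. The difference between the lines was not tested, because each line and treatment is 1 sample. In HCT-116 42 of 92 fixed cells exceeded the live CDKN1A median, and in HepG2 58 of 83 did. Under the TPM settings run, the SESN1 ratio in HCT-116 lay between -0.11 and -1.89, with SESN1 above 0 in 78% of live and 40.2% of fixed cells, and that of ZMAT3 between -0.01 and -0.46. In mean CPM, which is not divided by transcript length, both were slightly higher in fixed HCT-116, at 14.1 live and 14.2 fixed for SESN1 and 3.998 live and 4.46 fixed for ZMAT3. CDKN1A had a lower fixed mean in HCT-116 in CPM as well, at 175.7 live and 133.2 fixed.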

How the results depend on the processing

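No paired analysis was possible because the columns carry no replicate number from the labels, and cells matched on total reads were matched by depth only. Of 92 alternative values of the main results 85 were close to the value given and 7 were not. For single genes, close meant a move within the SD over cells, and 281 values were close and 9 were not. That band is wide, so these counts do not show that single-gene ratios were stable. No ratio past 2-fold changed direction. Members past 2-fold in HCT-116 were 1 in place of 2 on the mean of log2(TPM + 1). Pairs at r of 0.3 were 15 in place of 9 in live HCT-116 after rescaling by the median ratio, and 1 in place of 3 in live HepG2 by Spearman's rho. With genes detected taken out, the r of CDKN1A with mitotic genes was -0.39 in live HCT-116 and -0.23 in fixed HepG2, and with S-phase genes -0.26 in fixed HepG2. By Spearman's rho, CDKN1A with S-phase genes had -0.11 in live HCT-116. The cause of these moves was not tested. The 9 single-gene values, which moved by more than the SD over cells, were of BBC3 and ZMAT3. Within that SD, SESN1 in HCT-116 passed 2-fold on the mean of log2(TPM + 0.1), at -1.89, and GDF15 in HepG2 on that of log2(TPM + 1), at 1.03. Fixed cells were shallower than live cells, and with 1 sample per line and treatment no spread between cultures can be had.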
